A study of Mus musculus with 6 samples.

Results

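Polycomb repressive complex 2 (PRC2) is the enzyme complex that methylates lysine 27 of histone H3, and the 10 genes described here encode 6 core and 4 accessory subunits of it. They were chosen as the rows of the deposited gene table that carry the symbols *Ezh1*, *Ezh2*, *Eed*, *Suz12*, *Rbbp4*, *Rbbp7*, *Jarid2*, *Aebp2*, *Phf1* and *Mtf2*, and all 10 were found among its 18049 genes. Total RNA was sequenced from colonic crypts of a mouse model of Lynch syndrome, with 3 mice given vehicle (control) and 3 given the EZH2 inhibitor GSK503 at 200 μg/kg by tail vein injection, on a schedule of 2 injections per week. All 6 mice carried *Villin-Cre*, which acts in intestinal epithelium, and a humanized knockin of the TGF-β type II receptor gene on a C57BL/6J background, and the colony was kept on a Western-style diet. Control mice received captisol in PBS, and the age of each mouse is not given in the sources used here.

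In PRC2, EZH2 or its paralog EZH1 is the catalytic subunit, EED reads the methylated histone and stimulates the enzyme, and SUZ12 is the scaffold on which the complex is built. RBBP4 and RBBP7 bind histones and belong to other chromatin complexes as well. Accessory subunits divide the complex into forms, with PHF1 and MTF2 in PRC2.1 and JARID2 and AEBP2 in PRC2.2, and they guide it to DNA and nucleosomes. EZH2 is the form typical of dividing cells, such as those at the base of intestinal crypts, and EZH1 is retained in cells that no longer divide. GSK503 blocks the activity of the EZH2 protein, so a transcript level is not a measure of whether the drug acted.

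The values are estimated counts, given as CPM (each library's counts brought to a fixed total) after the authors' TMM scaling, and the libraries held between 108200000 and 135100000 estimated counts. At this depth 3 counts equal between 0.0228 and 0.0271 CPM, a limit that covers counting error only, and every member stood far above it. The 6 epithelial markers summed to between 9565 and 10455 CPM in control mice and between 10029 and 11670 CPM in GSK503-treated mice, and the one with the smallest p was *Vil1* (log2FC 0.21, limma adjusted p = 0.363). The libraries differed in sex-linked transcripts. *Xist* was between 0.419 and 0.936 CPM in control mice and between 825.2 and 1236 CPM in treated mice, and the Y-linked genes *Uty*, *Ddx3y*, *Kdm5d* and *Eif2s3y* had an adjusted p below 0.05 for lower values in treated mice, so treatment and sex cannot be told apart in any comparison here. Treated mouse 3 also differed from the other treated mice in stromal transcripts. The summed level of 5 smooth muscle markers was 4.36, 4.07 and 110.2 CPM in treated mice 1, 2 and 3, against 20.3 to 80.4 CPM in control mice. Fibroblast (5 genes), macrophage (6) and B cell (6) markers summed to 56.9 to 69.3, 15.1 to 22.7 and 22.0 to 75.0 CPM in control mice, to at most 33.6, 8.54 and 3.66 CPM in treated mice 1 and 2, and to 106.8, 34.1 and 61.4 CPM in treated mouse 3. Endothelial markers (4) summed to 3.27 to 5.46 CPM in control and 1.78 to 7.44 CPM in treated mice, and T cell markers (5) to 8.39 to 14.3 and 8.20 to 10.6 CPM. No marker was at 0 in all mice, and none of these lists held a gene with an adjusted p below 0.05.

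The mean of each of the 10 genes was lower with GSK503, as was that of 51.1% of the 16670 genes tested. None of the 10 passed an adjusted p of 0.05 in limma's test across all genes, where 0.642% of genes did. *Suz12*, *Ezh2*, *Ezh1* and *Aebp2* did not overlap between the groups, with all treated mice below all control mice, a pattern that 9.22% of genes showed in this direction. The same 4 genes had an unadjusted limma p below 0.05, as did 6.27% of genes in the lower direction, and 7.78% of the 6493 genes whose mean level lay within the range of the members. Limma-voom on counts recovered from the table gave an unadjusted p below 0.05 for the same 4 members (6.38% of genes, lower direction) and an adjusted p below 0.05 for none. The median log2FC (log2 fold change, GSK503 over control, on log2(CPM + 0.1)) was -0.14 over the 10 genes and -0.01 over all genes tested.

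**Figure D1:**
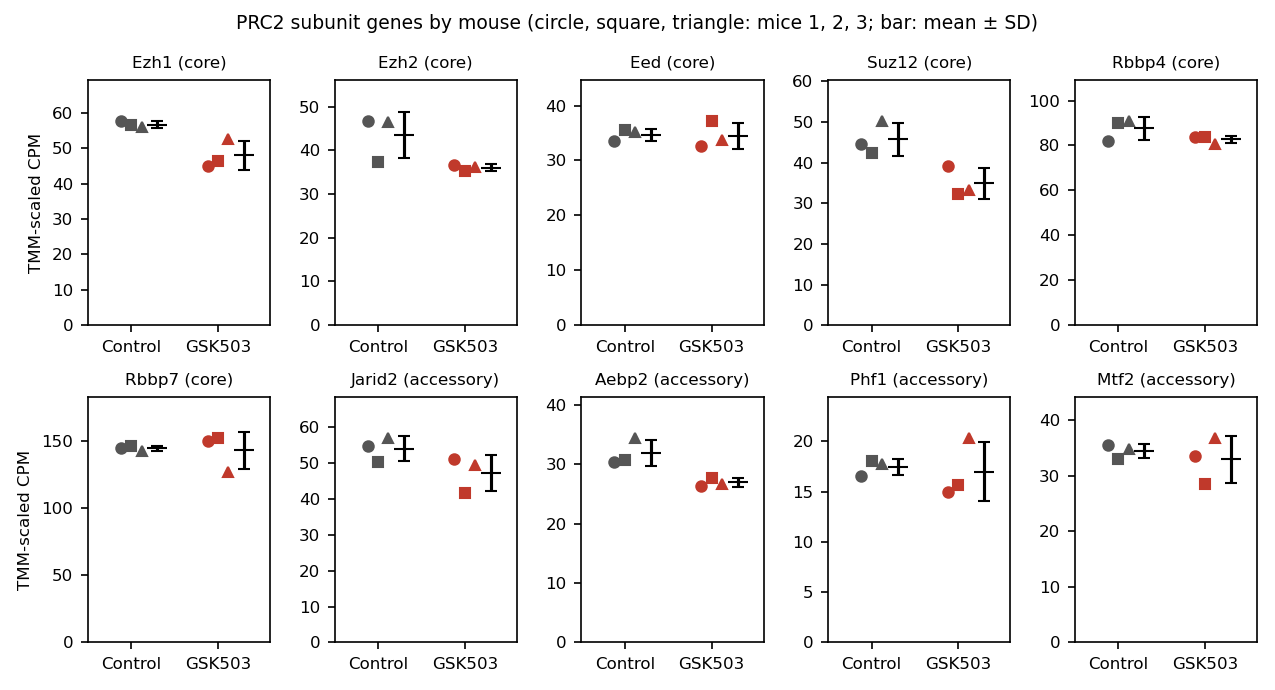
Level of each PRC2 subunit gene in TMM-scaled CPM (y axis, from 0) in the 3 control and 3 GSK503-treated mice, with symbols for mice 1, 2 and 3 and a bar for the mean ± SD. For *Ezh1*, *Ezh2*, *Suz12* and *Aebp2* the 3 treated mice sit below the 3 control mice, and for the other 6 genes the groups overlap.

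The catalytic subunits came first. *Ezh2* (ENSMUSG00000029687, chromosome 6 of GRCm39, 47507073 to 47572331, minus strand) encodes the subunit that GSK503 inhibits. Its level was 46.7, 37.4 and 46.5 CPM in control mice 1, 2 and 3 and 36.6, 35.2 and 36.3 CPM in treated mice 1, 2 and 3. The treated mice were close to each other, and control mouse 2 lay nearer to them than to the other control mice. The control mean was 43.6 ± 5.29 and the treated mean 36.02 ± 0.769 CPM (SD, n = 3 mice each), and the log2FC came to -0.27 ± 0.10 (SE; limma, adjusted p = 0.291). The 95% interval of this log2FC ran from -0.49 to -0.04.

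*Ezh1* (ENSMUSG00000006920, chromosome 11, 101081934 to 101117315, minus strand) encodes the paralog with the weaker methyltransferase activity. Its level was 57.8, 56.5 and 55.9 CPM in control mice and 45.0, 46.3 and 52.7 CPM in treated mice. Here the control mice were the uniform group, and treated mouse 3 was nearest to them. The means were 56.7 ± 0.948 and 48.0 ± 4.11 CPM (SD, n = 3 mice each), and the log2FC came to -0.24 ± 0.08 (SE; limma, adjusted p = 0.24, 95% interval -0.43 to -0.06).

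The ratio of *Ezh1* to *Ezh2* within each mouse asks whether the balance of the catalytic subunits differed between the groups, and gene length cancels from that comparison. The log2 ratio was 0.30, 0.59 and 0.27 in control mice and 0.30, 0.40 and 0.54 in treated mice, so the groups overlapped. The mean log2 ratio was 0.39 ± 0.18 in control and 0.41 ± 0.12 in treated mice (SD, n = 3 each). The difference of 0.02 was smaller than the spread between mice (exact two-sided permutation test, p = 0.9, where 3 mice against 3 cannot give a p under 0.1). The log2FC of *Ezh1* and *Ezh2* were thus within 1 standard error of each other. Per kilobase of exon (the union of all annotated exons), *Ezh1* stood at 6.13 ± 0.102 and *Ezh2* at 5.97 ± 0.725 CPM per kb in control mice, and at 5.19 ± 0.444 and 4.93 ± 0.105 CPM per kb in treated mice (SD, n = 3 each). The per-length ratio of *Ezh1* to *Ezh2* lay between 0.949 and 1.19 in all 6 mice, and between 0.877 and 1.10 with the length of the canonical transcript in place of the exon union.

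Of the noncatalytic core subunits, *Suz12* had the lowest log2FC of the 10 genes and *Eed* the one nearest to 0. *Suz12* (ENSMUSG00000017548, chromosome 11, 79883891 to 79925421, plus strand) was at 44.7, 42.3 and 50.3 CPM in control mice and 39.2, 32.3 and 33.3 CPM in treated mice. All treated mice lay below all control mice, with treated mouse 1 the closest to them. The means were 45.8 ± 4.09 and 34.9 ± 3.77 CPM (SD, n = 3 mice each), and the log2FC came to -0.39 ± 0.10 (SE; limma, adjusted p = 0.136, 95% interval -0.62 to -0.16), and 9.8% of all genes tested had a lower log2FC. *Eed* (ENSMUSG00000030619, chromosome 7, 89603862 to 89630217, minus strand) was at 33.5, 35.5 and 35.1 CPM in control mice and 32.7, 37.2 and 33.7 CPM in treated mice. These groups overlapped fully, and the log2FC came to -0.01 ± 0.08 (SE; limma, adjusted p = 0.979). The 95% interval of *Eed*, from -0.20 to 0.18, leaves room for a change of up to 12.8% lower or 13.4% higher.

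Set against *Eed* in the same mouse, *Suz12* was higher in the control mice, with log2 ratios of 0.42, 0.25 and 0.52, than in treated mice 2 and 3, with -0.21 and -0.02. Treated mouse 1, at 0.26, lay within the control range, so the groups overlapped. The summed catalytic transcripts (*Ezh1* plus *Ezh2*, per kb of exon) over *Eed* were 1.46, 1.22 and 1.36 in control mice and 1.17, 1.02 and 1.22 in treated mice. Treated mouse 3 stood just below control mouse 2, at 1.219 against 1.221, and the other treated mice were lower still. The same sum over *Suz12* was 2.14, 2.004 and 1.86 in control mice and 1.90, 2.30 and 2.42 in treated mice, which overlapped. These summed ratios are descriptions, picked once the values were known.

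**Figure D2:**
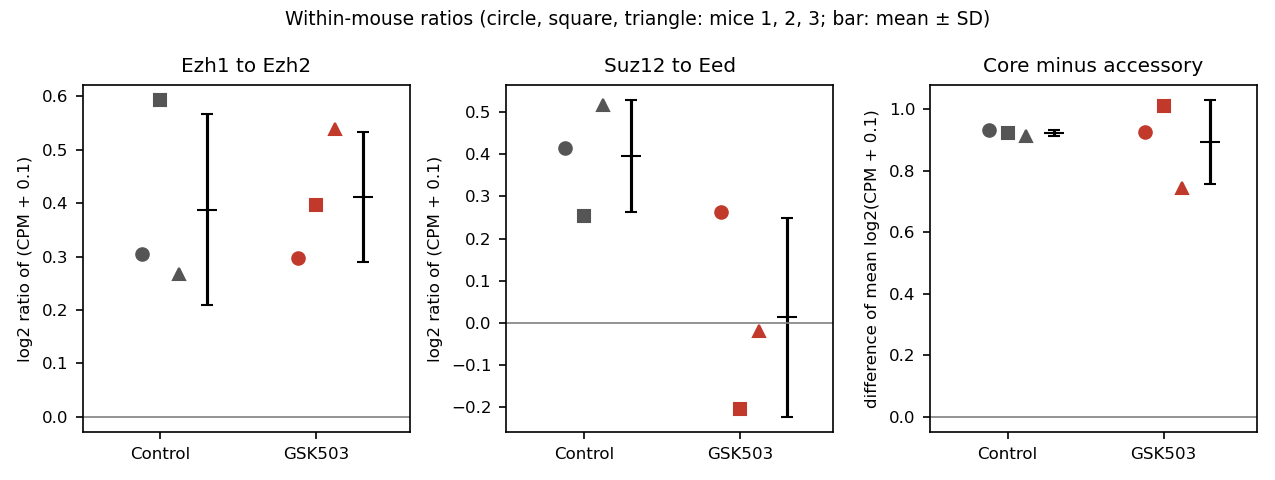
Ratios within each mouse (y axes: log2 ratio of CPM + 0.1 in the left and middle panels, difference of mean log2(CPM + 0.1) in the right panel) for *Ezh1* to *Ezh2*, *Suz12* to *Eed* and core minus accessory subunits, with symbols for mice 1, 2 and 3 and a bar for the mean ± SD. The groups overlap in all 3 panels, with group means of 0.39 and 0.41 for *Ezh1* to *Ezh2*.

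*Rbbp4* and *Rbbp7* encode paralogous histone-binding proteins, and both had overlapping groups. *Rbbp4* (ENSMUSG00000057236, chromosome 4, 129184867 to 129229170, minus strand) was at 81.9, 90.1 and 91.0 CPM in control mice and 83.6, 83.8 and 80.7 CPM in treated mice. Control mouse 1 fell among the treated mice, and the log2FC came to -0.08 ± 0.07 (SE; limma, adjusted p = 0.668). *Rbbp7* (ENSMUSG00000031353, X chromosome, 161543356 to 161562099, plus strand) was at 144.5, 145.9 and 142.7 CPM in control mice and 149.6, 152.1 and 127.0 CPM in treated mice. Treated mice 1 and 2 lay above all control mice and treated mouse 3 below them, and the log2FC came to -0.02 ± 0.08 (SE; limma, adjusted p = 0.947). It is the only X-linked gene of the 10, and the difference in *Xist* between the groups given above applies to it directly. Without treated mouse 3, the log2FC of *Rbbp7* was 0.06 (limma adjusted p = 0.722).

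Among the accessory subunits, the PRC2.2 genes had the lower log2FC values with all 6 mice, a contrast that was not tested. *Aebp2* (ENSMUSG00000030232, chromosome 6, 140546644 to 140713010, plus strand), whose protein binds nucleosomes with JARID2, was at 30.4, 30.8 and 34.4 CPM in control mice and 26.3, 27.8 and 26.8 CPM in treated mice. The groups did not overlap. Their means were 31.9 ± 2.22 and 26.97 ± 0.744 CPM (SD, n = 3 mice each), and the log2FC came to -0.24 ± 0.09 (SE; limma, adjusted p = 0.279, 95% interval -0.44 to -0.04). *Jarid2* (ENSMUSG00000038518, chromosome 13, 44882950 to 45075119, plus strand), which encodes a Jumonji-family protein without demethylase activity, was at 54.9, 50.2 and 56.9 CPM in control mice and 51.0, 41.6 and 49.4 CPM in treated mice. Treated mouse 1 lay above control mouse 2, and the log2FC came to -0.19 ± 0.10 (SE; limma, adjusted p = 0.438, 95% interval -0.41 to 0.02).

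The PRC2.1 genes *Mtf2* and *Phf1* encode Polycomb-like proteins that bind unmethylated CpG-rich DNA. *Mtf2* (ENSMUSG00000029267, chromosome 5, 108213540 to 108256877, plus strand) was at 35.6, 33.1 and 34.8 CPM in control mice and 33.6, 28.5 and 36.8 CPM in treated mice, and the log2FC came to -0.07 ± 0.10 (SE; limma, adjusted p = 0.814). *Phf1* (ENSMUSG00000024193, chromosome 17, 27152002 to 27156892, plus strand) was at 16.6, 18.1 and 17.7 CPM in control mice and 15.0, 15.6 and 20.3 CPM in treated mice. Its log2FC came to -0.05 ± 0.13 (SE; limma, adjusted p = 0.91, 95% interval -0.34 to 0.24), the widest interval of the 10. Treated mouse 3, the mouse with the high smooth muscle sum, was the highest of all 6 mice for both *Mtf2* and *Phf1* and the lowest for both *Rbbp7* and *Rbbp4*. Its stromal transcripts' part in these values was not tested. Without it, the log2FC of *Phf1* was -0.19 and that of *Mtf2* was -0.16, with a limma adjusted p of 0.464 and 0.507. The PRC2.2 genes *Aebp2* and *Jarid2* were then both at -0.23, close to these values.

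Core and accessory subunits were compared as classes without a test, since their mean is a score over chosen genes. The median log2FC was -0.16 over the 6 core genes, with a range from -0.39 to -0.01, and -0.13 over the 4 accessory genes, with a range from -0.24 to -0.05. *Suz12* and *Ezh2* lay below every accessory gene, and *Ezh1* and *Aebp2* were equal to 2 decimals. Of the core genes 3, and of the accessory genes 1, did not overlap between the groups, with all treated mice lower. Over all genes tested, 9.22% showed this pattern, and counts from classes of 6 and 4 genes do not set the classes apart. The mean log2 level of the core minus that of the accessory genes was 0.93, 0.92 and 0.91 in control mice and 0.93, 1.01 and 0.74 in treated mice. Control mice were nearly identical by this measure, and treated mice 2 and 3 lay on opposite sides of them. The difference between the groups was -0.03. It became 0.05 without treated mouse 3 and -0.09 without treated mouse 2, -0.09 with *Rbbp4* and *Rbbp7* left out of the core, and -0.12 with the median over subunits in place of the mean.

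**Figure D3:**
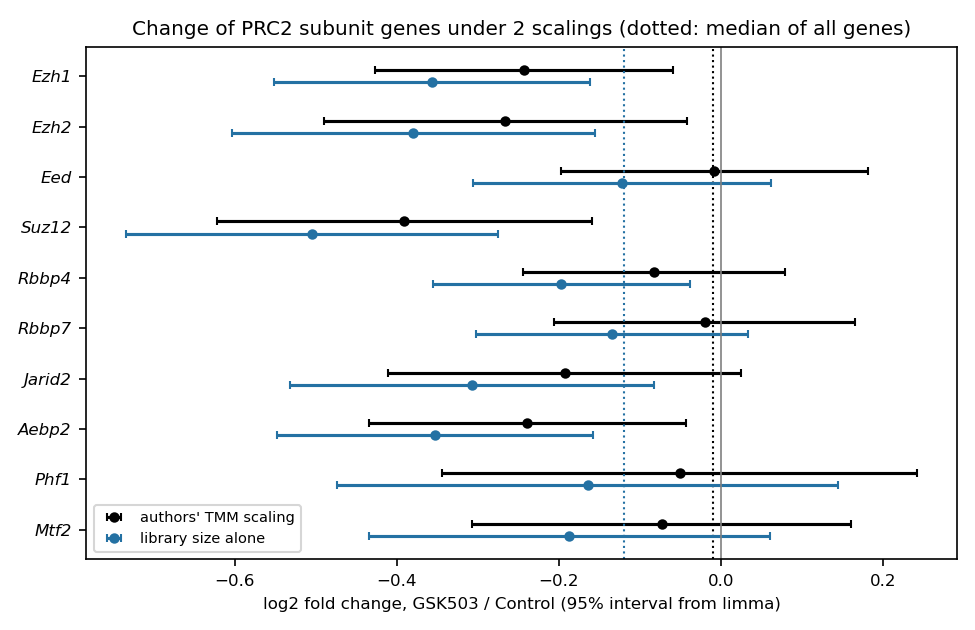
Log2 fold change of each PRC2 subunit gene (x axis, GSK503 over control, points) with its 95% interval from limma (bars), under the authors' TMM scaling (black) and with library size alone (blue), and the median of all genes under each (dotted lines). All 10 points are below 0 under both scalings, and library size alone moves the median of all genes from -0.01 to -0.12 and the members with it.

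Scaled by library size only, the median log2FC of all genes was -0.12, and 69.9% of all genes were below 0. *Suz12* then stood at -0.50 with a limma adjusted p of 0.0482, where 1.07% of genes were called lower, and it was the only member to pass 0.05 under any alternative run. Its distance from the median of all genes was nearly the same under both scalings. The 6 goblet cell markers summed to between 10122 and 18316 CPM in control mice and to between 31336 and 49874 CPM in treated mice, and *Clca1*, *Tff3* and *Spdef* rose, 3 of the 6. The part of goblet transcripts in the scaling was not tested. The mean of all 6 enteroendocrine markers was lower in treated mice, and 3 of them, *Chga*, *Chgb* and *Gcg*, had a limma adjusted p below 0.05. In bulk crypts, fewer cells of a type and less RNA per cell cannot be told apart.

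The order of the levels was read per kilobase of exon, over all 6 mice. *Rbbp7* was first, with 15.4 to 18.4 CPM per kb, followed by *Eed* with 8.48 to 9.66 and *Rbbp4* with 6.36 to 7.17, and none of these ranges overlapped that of the gene next in order. The range of *Rbbp4* did overlap those of *Ezh2*, which reached 6.40, and *Suz12*, which reached 6.66. *Ezh1*, *Ezh2*, *Suz12*, *Mtf2*, *Phf1* and *Jarid2* followed with means between 4.70 and 5.66 CPM per kb, and each of these ranges overlapped that of its neighbour in the order. *Aebp2* was last with 1.603 to 2.097 CPM per kb, below the range of every other member. The order depended on the length used, since the exon union of *Aebp2* is 16428 bases and its canonical transcript 4585 bases. Per kilobase of the canonical transcript, an alternative chosen after seeing the data, *Rbbp7* was still first with 55.3 to 66.2 CPM per kb and *Aebp2* last with 5.74 to 7.51, but *Rbbp4* ranked above *Eed*, and *Phf1* and *Aebp2* overlapped. By canonical length *Ezh2* (mean 12.9 CPM per kb) and *Ezh1* (12.4) stood above *Suz12* (8.26), with no overlap between *Ezh1* and the next gene in the order, *Mtf2*.

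Transcript length also ran through the comparison of the groups. Among genes with a mean of at least 10 CPM, split into 5 classes of near equal size by canonical transcript length, the median log2FC was 0.08 in the shortest class (up to 2006 bases), 0.03, 0 and -0.03 in the next classes and -0.09 in the longest (5825 bases or more). The share of these genes with a lower mean was 29.3%, 42.5%, 48.9%, 60.1% and 71.1% in classes 1 (shortest) to 5 (longest). *Jarid2* belonged to class 5, and *Suz12*, *Ezh1*, *Aebp2* and *Rbbp4* to class 4. *Ezh2* and *Mtf2* belonged to class 3, and *Eed*, *Rbbp7* and *Phf1* to class 2. When each library was centred within these classes, an alternative chosen after seeing the data, all 10 genes kept a lower mean. The log2FC was then -0.36 for *Suz12*, -0.27 for *Ezh2*, -0.21 for *Ezh1* and *Aebp2* and -0.11 for *Jarid2*, with limma adjusted p between 0.102 and 0.617. *Phf1* and *Mtf2* both stood at -0.08 (limma adjusted p = 0.841 and 0.791), near *Jarid2*.

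**Figure D4:**
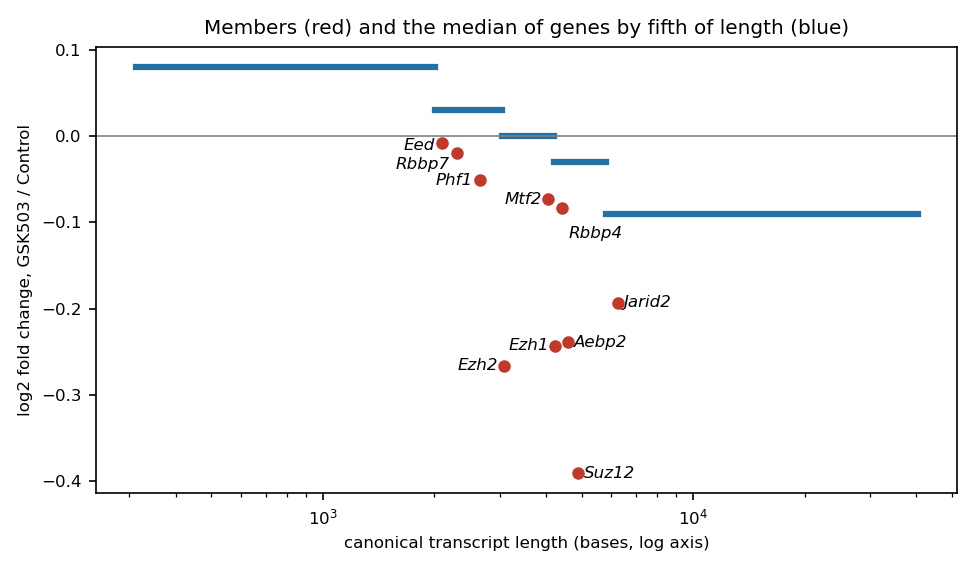
Log2 fold change (y axis, GSK503 over control) of each PRC2 subunit gene (red points) against the length of its canonical transcript in bases (x axis, log scale), with the median of all genes of at least 10 CPM in each of 5 length classes (blue lines). The medians run from 0.08 in the shortest class to -0.09 in the longest, and every red point lies below the line of its own class.

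Dividing cells express *Ezh2* strongly, and E2F factors, which drive genes of the cell cycle, are known regulators of it, so the promoters were searched for E2F-type letters. The motifs TTTGGCGC, TTTCCCGC, TTTGCCGC and TTTCGCGC were searched on both strands in the RefSeq promoter windows of 300 bases (250 before and 50 after the gene start), which had been extracted from GRCm38.p6 and were placed on GRCm39 by exact match. TTTGGCGC can overlap its own reverse complement. A match was found for *Ezh2* and *Suz12*, 2 of the 10 members, against 704 of the 27025 genes with a RefSeq promoter (2.6%). These genes, which also had the lowest log2FC values, are shown with the matched letters in capitals.
Ezh2, chr6:47571954-47572024, minus strand: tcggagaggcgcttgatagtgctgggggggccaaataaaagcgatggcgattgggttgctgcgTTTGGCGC
Suz12, chr11:79883683-79883760, plus strand: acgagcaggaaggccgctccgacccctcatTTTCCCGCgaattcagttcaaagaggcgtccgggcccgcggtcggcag
The match of *Ezh2* lies just after its RefSeq start and that of *Suz12* starts 219 bases before it. These letters are a description and not a bound site, and their part in the levels was not tested.

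Proliferation markers were read beside them. Of 12 such genes, the mean was lower for 6 and higher for 6 in treated mice, none had a limma adjusted p below 0.05, and their median log2FC was 0 to 2 decimals. *Mki67*, which encodes the Ki-67 antigen of cycling cells, was at 706, 646 and 768 CPM in control mice and 579, 559 and 477 CPM in treated mice, and the log2FC came to -0.39 ± 0.10 (SE; limma, adjusted p = 0.136). Its groups did not overlap, and neither did those of *Top2a* (log2FC -0.17, limma adjusted p = 0.417). Over all genes tested, 9.22% had all treated mice below all control mice. For every other proliferation marker the groups overlapped. *Rrm2*, the marker with the smallest p in the higher direction, had a log2FC of 0.14 (limma adjusted p = 0.784).

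The other genes of the pathway were taken from whole lists. Of 4 further accessory genes in the table, the mean was lower for 2 and higher for 2, and no limma adjusted p was below 0.05. The remaining Polycomb-like gene, *Phf19*, was at 8.76, 5.37 and 6.97 CPM in control mice and 8.80, 8.79 and 6.86 CPM in treated mice, with a log2FC of 0.23 (limma adjusted p = 0.671). *Lcor*, which gives rise to a PRC2.1 subunit, had a log2FC of -0.15 (limma adjusted p = 0.496). Of 19 PRC1 genes, whose complex ubiquitinates histone H2A, 13 had a lower mean, with a median log2FC of -0.06 and none passing 0.05. *Cbx2*, a PRC1 reader of the mark that PRC2 makes, stood at a log2FC of -0.43 (limma adjusted p = 0.25), and *Yaf2* at 0.19 (limma adjusted p = 0.64).

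The enzymes that remove the PRC2 mark are the demethylases. *Kdm6a*, X-linked, rose from 44.2 ± 5.998 to 74.6 ± 3.40 CPM (SD, n = 3 mice each; log2FC 0.76, limma adjusted p = 0.0157). Its Y-linked counterpart *Uty* fell from 47.3 ± 5.80 to 0.94 ± 0.234 CPM (log2FC -5.53, limma adjusted p = 9.27e-07). The summed level of *Kdm6a*, *Uty* and the autosomal *Kdm6b* lay between 111.8 and 135.7 CPM in control mice and between 102.6 and 112.0 CPM in treated mice. This sum adds transcripts, with *Uty* counted like the others, and is not a measure of demethylase activity. For *Kdm6a* and *Uty* the treatment and the sex of the mice cannot be told apart. *Kdm6b* itself stood at a log2FC of 0.10 (limma, adjusted p = 0.798) with overlapping groups.

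Genes of other chromatin enzymes and complexes were read in the same way. The acetyltransferase genes *Crebbp* and *Ep300*, whose products acetylate the residue that PRC2 methylates, had log2FC values of -0.38 and -0.32 (limma adjusted p = 0.212 and 0.153). Of 5 H3K36 methyltransferase genes, 4 had a lower mean, with a median log2FC of -0.19 and *Ash1l* at -0.25 (limma adjusted p = 0.227). *Nsd3*, the exception, had a log2FC of 0.06 (limma adjusted p = 0.854). Of 4 PR-DUB genes, 3 had a lower mean, with *Asxl1* at -0.36 and *Bap1* at 0.17 (limma adjusted p = 0.144 and 0.438). Among 17 genes of other complexes that hold RBBP4 and RBBP7, 10 had a lower mean, with a median log2FC of -0.05. In that list *Hdac1* had a log2FC of -0.21 and *Sin3b* one of 0.10 (limma adjusted p = 0.433 and 0.602). None of these genes passed 0.05. The log2FC values of the pathway and proliferation lists were not centred by transcript length.

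**Figure D5:**
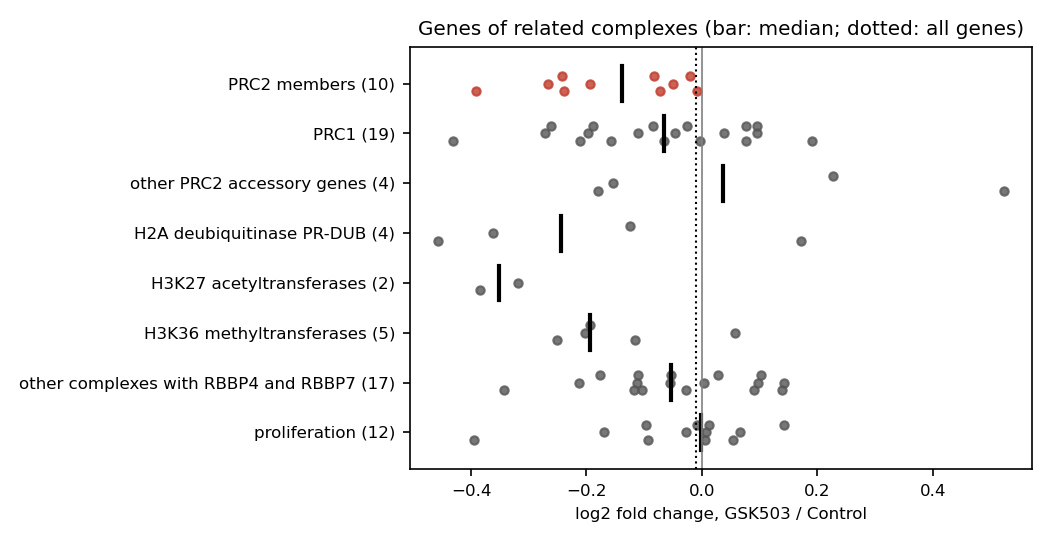
Log2 fold change (x axis, GSK503 over control) of the PRC2 members (red) and of genes of related complexes and proliferation markers (grey), 1 point per gene, with the median of each list as a bar and that of all genes as a dotted line. The PRC2 members have a median of -0.14, PRC1 genes one of -0.06 and H3K36 methyltransferase genes one of -0.19. Lower than these are the medians of PR-DUB genes (-0.24) and H3K27 acetyltransferase genes (-0.35). The other medians are 0.04 for further PRC2 accessory genes, -0.05 for other complexes with RBBP4 and RBBP7 and -0.001 for proliferation markers.

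Across the 6 mice, the genes whose pattern was most like that of *Ezh2* were *Mccc1*, *Atpsckmt* and *Nr1i2*, with Pearson's r of 0.991, 0.986 and 0.98 on log2(CPM + 0.1). For *Ezh1* they were *Lrrk2*, *Mllt1* and *Zkscan7*, with r of 0.994, 0.991 and 0.988. Of the 9235 other genes compared, 152 had an r of at least 0.9 with *Ezh2* and 110 with *Ezh1*. The 6 points share the split between the groups, so these values are descriptions of few samples. Among the members, *Suz12* had an r of 0.87 with *Jarid2*, 0.85 with *Ezh2* and 0.84 with *Aebp2*, and *Rbbp7* one of -0.89 with *Phf1*.

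Several members share exonic sequence with a gene on the opposite strand in the GENCODE annotation. *Cuta* covers 38.6% of the exon union of *Phf1*, *Sync* 25.1% of that of *Rbbp4* and *Dtnbp1* 12% of that of *Jarid2*. The overlap was 9.21% for *Eed* with a noncoding gene, 8.8% for *Ezh1* with *Cntnap1*, and less for the other members. The library kit keeps the strand, but whether the counting used it is not given in the sources used here, so the values of *Phf1*, *Rbbp4* and *Jarid2* may include reads from these neighbours.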

How the data were processed

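Colonic crypt RNA of 3 vehicle and 3 GSK503 mice was compared, 1 library per mouse, with groups and replicate numbers from the sample labels. Per the paper's methods and the labels, reads were aligned to GRCm39 with STAR, counted per gene with RSEM and scaled with edgeR's TMM. The deposited signal is therefore an estimated count scaled to CPM by the TMM library size, not a raw count. Between 73.4% and 77.2% of values above 0 were whole multiples of each library's step within 0.01 counts, and this step gave the library totals. Genes with at least 0.1 CPM in at least 3 mice (16670 of 18049) were tested with limma 3.58.1 (R 4.3.3), using lmFit and eBayes with an intensity trend on log2(CPM + 0.1) and Benjamini-Hochberg adjustment over all of them. Intervals are 95% and from the same fit. Gene positions and lengths came from GENCODE M39 on GRCm39, with a protein-coding length for 88% of tested genes, and promoter sequences from RefSeq.

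The members and the lists were chosen with earlier results of these data known. All 10 members are named, and from each pathway list the genes with an adjusted p below 0.05 or else the smallest p in each direction, besides *Kdm6a*, *Kdm6b*, *Mki67*, *Xist* and *Uty*. Of the cell type markers, those with an adjusted p below 0.05 are named, and *Vil1*, *Rrm2* and *Top2a*, which were chosen after their values were seen. The stromal and immune lists are given as sums. *Ezhip* was not analysed here. A further allele that all 6 mice shared is not reported here. Alternatives were other scalings, pseudocounts and filters, no intensity trend, a replicate block, leaving out X and Y genes or each mouse in turn, limma-voom on recovered counts and centring by transcript length. Replicate numbers do not pair mice, since deviations of same-numbered mice from their group means correlated at 0.03, -0.13 and -0.12. The ratio test used scipy 1.17.1, tables pandas 2.3.3 with numpy 2.4.6 in Python 3.11.15, and plots matplotlib 3.10.9.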

Additional observations from a re-analysis of the deposited data

How the results depend on the processing

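Means of all 10 genes were lower with GSK503 under every alternative run that kept all 6 mice, except that *Rbbp7* drops out with the X and Y genes, leaving 9 of 9. Leaving out single mice gave 8 to 10 lower genes. *Eed* turned to between 0.00 and 0.03 without control mouse 2 (0.01), control mouse 3 (0.00), treated mouse 1 (0.03) or treated mouse 3 (0.01), *Rbbp7* to 0.06 without treated mouse 3, *Phf1* to 0.03 and 0.00 without treated mouse 1 or 2, and *Mtf2* to 0.03 without treated mouse 2. Over single mice left out, the lowest values of these genes were -0.06 for *Eed*, -0.07 for *Rbbp7*, -0.19 for *Phf1* and -0.16 for *Mtf2*. The cause was not tested. The number of members with an adjusted p below 0.05 was 0, and 1 (*Suz12*, -0.50) with library size alone, where all values moved lower with the median of all genes. The difference in log2 *Ezh1* to *Ezh2* ran from -0.04 to 0.13 with each mouse left out, and was -0.02 without control mouse 1 and -0.04 without control mouse 3 or treated mouse 3. The difference of core minus accessory ran from -0.09 to 0.05 with each mouse left out and from -0.12 to 0.05 over all alternatives. For *Suz12* the log2FC lay between -0.50 and -0.32 and the adjusted p between 0.0482 and 0.458 over the alternatives, and for *Ezh2* between -0.38 and -0.21 with an adjusted p of at least 0.0855. With the replicate block the log2FC of *Suz12* was -0.39 and that of *Ezh2* -0.27, and 0 members were called. No mouse correlated best with the mouse of its own number in the other group. Calls over all genes fell from 83 higher and 24 lower to 23 and 10 with the block and to 9 and 7 without the intensity trend. With library size alone 83 were higher and 178 lower, with no filter 58 and 12, with the length centring (chosen after seeing the data) 141 and 46, and without treated mouse 3 they were 116 and 100.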
